A study of Mus musculus with 16 samples.

Results

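The 14-3-3 proteins are encoded in the mouse by 7 genes, Ywhab, Ywhae, Ywhag, Ywhah, Ywhaq, Ywhaz and Sfn, and all 7 were found by gene name among the 36711 genes measured on the arrays. They were followed in colon RNA of 16 RjOrl:SWISS pups, an outbred stock, collected at weaning and hybridised on 1-colour Agilent arrays with 1 array per pup. The 8 C-section delivery (CSD) pups were obtained by hysterectomy and raised by foster mothers that had given birth vaginally. They came from mother 3 and mother 4, with 2 females and 2 males from each. The 8 vaginal delivery (VD) pups were 2 females and 3 males of mother 5 and 3 males of mother 6, and VD litters were exchanged between mothers, so that pups of both groups were nursed by another dam. The 16 pups were taken as conventional animals, following the study's methods, although the protocol text of the labels also speaks of ex germ-free mice and no label says which pups, if any, were such. The labels name no agent given to either group. Every mother gave pups to 1 group only, so that delivery mode varied between 4 litters and cannot be told apart from differences between the mothers. The p-values therefore measure the spread between pups of 2 litters per group. The labels give the tissue as intestine and the RNA as colon, and the colonocyte genes Aqp8 and Car1 were well above background on every array, whereas of 6 small intestine genes Lct, Apoa4 and Sis had no probe well above background on any array and Alpi had none that was so on all of them. The other two, Fabp6 and Lyz1, were well above background on every array, and the summed level of the list was 13.53 ± 0.33 in CSD and 13.89 ± 0.19 in VD pups (log2, SD, n = 8 each), with Lyz1, a Paneth cell lysozyme, as its most intense gene.

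14-3-3 proteins are adaptors without enzyme activity. They form dimers in a cup shape that clamp short phosphorylated stretches of other proteins, their clients, and so hold kinases such as Braf, the death protein Bad, or transcription regulators such as Foxo, Yap1 and the class IIa histone deacetylases in the cytoplasm or in one conformation. In the gut epithelium this places them between growth factor, energy and Hippo signals and the genes that these signals control. Sfn, or stratifin, stands apart from the others as the epithelial member, induced by p53 after DNA damage.

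The family was read by 14 probes of 60 bases, and 4 of the genes had a single probe. Of the 14 probes, 13 were well above background on all 16 arrays. The 4 probes below lay in coding sequence, as their reading frames show, and the other 10 lay further towards the 3′ end of their gene or were the only probe of it. The sequences are those given in the scanner output, 5′ to 3′ on the strand of the transcript. The Ywhab probe and the second Ywhaq probe are shown because the differences described below were largest on coding probes and because both genes were read there in the same conserved stretch of the family. Their ungapped overlap spanned 53 bases, of which 39 matched, and capitals mark the 14 bases that differ. The other 2 sequences have no capitals. Coordinates are those of the files (mm9).
Ywhab, chr2:163839797-163839856: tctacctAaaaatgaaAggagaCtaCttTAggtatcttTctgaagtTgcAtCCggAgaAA
Ywhaq, chr12:21404104-21404163: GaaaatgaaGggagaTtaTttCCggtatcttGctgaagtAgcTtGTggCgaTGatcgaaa
Ywhaq, chr12:21422802-21422861: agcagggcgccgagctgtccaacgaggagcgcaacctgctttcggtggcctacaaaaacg
Ywhaz, chr15:36720668-36720727: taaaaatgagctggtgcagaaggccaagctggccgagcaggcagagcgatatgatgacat

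Delivery mode was compared first, to ask whether expression of the family in the colon differed with the mode of birth. Ywhab, which encodes 14-3-3 beta, a partner of kinases at the head of the ERK cascade, was higher in CSD pups and was the only member called (adjusted p under 0.05). Its normalised log2 intensity, averaged over both probes, ran from 12.24 over a median of 12.36 to 12.43 in CSD pups and from 12.06 over 12.15 to 12.19 in VD pups. The groups did not overlap, and the lowest CSD pup exceeded the highest VD pup. The means were 12.36 ± 0.06 and 12.14 ± 0.05 (SD, n = 8 each), and the model, which includes sex and so need not return the plain difference of the means, gave a log2 difference of 0.22 (standard error 0.03, 95% interval 0.15 to 0.29, adjusted p = 0.0062, limma), or 16.6% more signal in CSD. This was a small change, as the median size of a called difference was 0.28 on the log2 scale, but 93.0% of all genes differed by less. Over all genes, 1.25% were called, 0.706% higher and 0.548% lower in CSD, against 1 of 7 members. Groups without overlap were seen in 0.493% of the 36493 genes with a value in every pup. An exact permutation test, which takes no account of litters, gave p = 0.000155, the smallest value that 12870 assignments of the pups allow. Groups without overlap always reach this value, so that it restates the separation and adds nothing to it.

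Both CSD litters were above both VD litters for Ywhab. The litter means were 12.39 ± 0.04 (mother 3) and 12.33 ± 0.06 (mother 4, SD, n = 4 each) in CSD, against 12.14 ± 0.05 (mother 5, SD, n = 5) and 12.13 ± 0.05 (mother 6, SD, n = 3) in VD. The neighbours within a delivery mode did not differ beyond the spread of their pups, with 0.06 between the CSD litters and 0.00 between the VD litters (adjusted p = 0.802 and 0.987, limma). The difference was 0.21 in males and 0.24 in females, and 0.16 on 1 slide and 0.28 on the other. Ywhab was called in each of the 16 fits that left out 1 pup (adjusted p from 0.00441 to 0.0226). It was not called without the litter of mother 3 (0.19, adjusted p = 0.0517, limma), without the litter of mother 5 (0.22, adjusted p = 0.0985), on either slide alone, or with litter means as samples (0.22, adjusted p = 0.286).

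**Figure D1:**
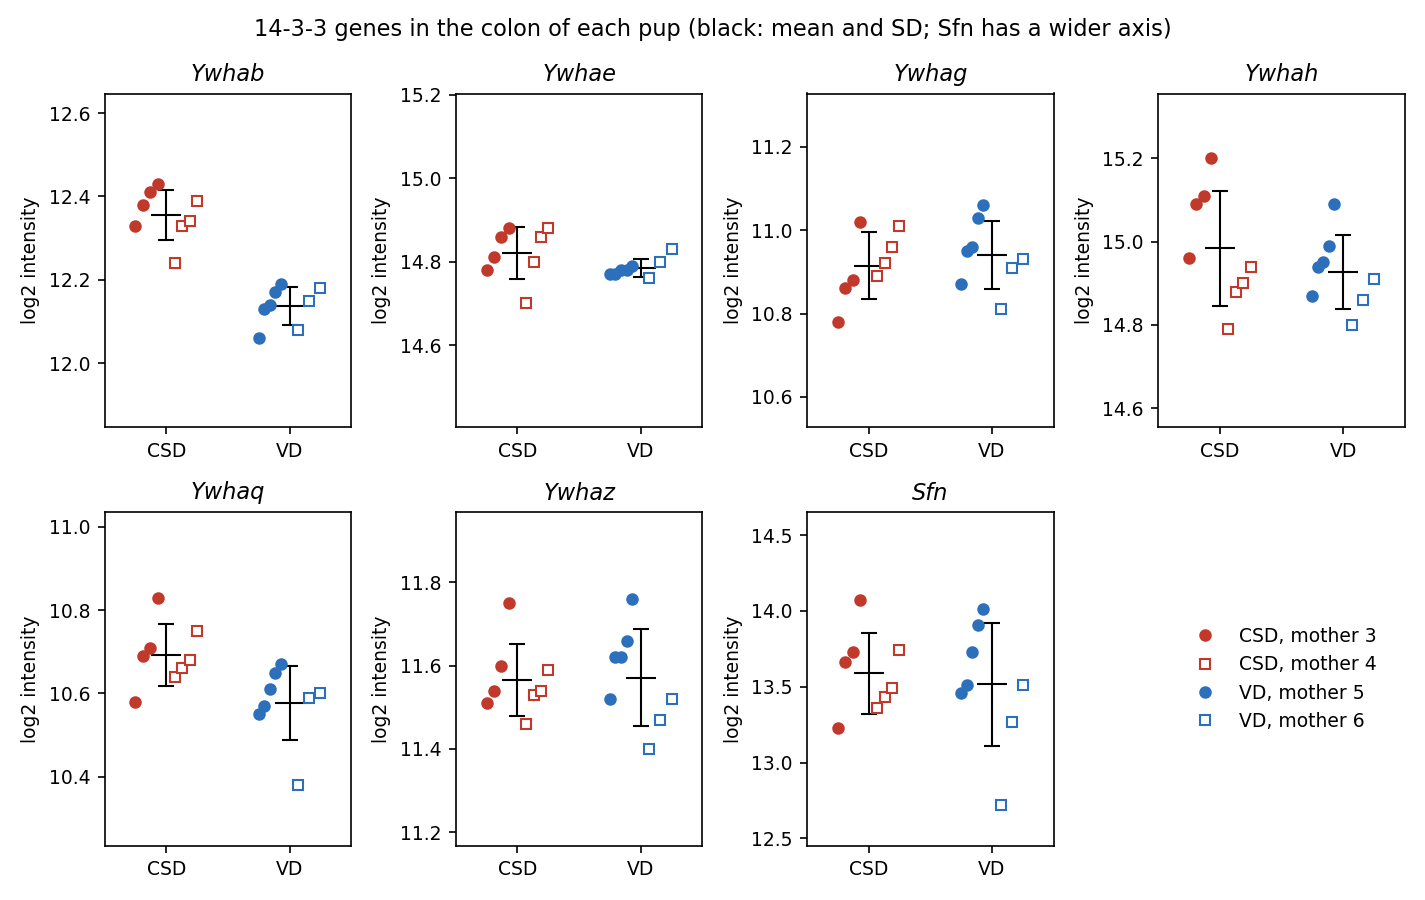
Normalised log2 intensity (vertical axis) of each 14-3-3 gene in each pup of the CSD and VD groups, with 1 point per pup, the symbol giving the mother, and the black bar the mean and SD. The 8 CSD pups sit between 12.24 and 12.43 for Ywhab, all above the VD pups, while the groups overlap in the other 6 genes.

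The other members are given with the interval of their difference, since none passed the limit. Ywhaq, which encodes 14-3-3 theta, abundant in T cells, ran from 10.58 over 10.68 to 10.83 in CSD and from 10.38 over 10.59 to 10.67 in VD pups. Here 5 of the 8 CSD pups exceeded the highest VD pup, and the lowest pup of all was VD pup 7. The average includes a dim probe, on which CSD pup 5, the highest pup, read 7.15 and the other pups 6.37 or less. Averaged over the other 5 probes, the values ran from 11.48 over 11.56 to 11.65 in CSD and from 11.21 over 11.48 to 11.56 in VD pups, with CSD pup 1 the highest, VD pup 7 the lowest and 4 CSD pups beyond the highest VD pup. The log2 difference over all probes was 0.10 (standard error 0.04, 95% interval 0.01 to 0.19, unadjusted p = 0.0311, adjusted p = 0.279, limma), and over the 5 probes it was also 0.10 (adjusted p = 0.331).

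Ywhae, encoding 14-3-3 epsilon, a form that often pairs with other members as a heterodimer, had 1 probe, at chr11:75578990-75579049. Its values ran from 14.70 over 14.84 to 14.88 in CSD and from 14.76 over 14.78 to 14.83 in VD pups. The VD pups lay inside the range of the CSD pups, whose SD was 0.06 against 0.02. The difference was 0.03 (95% interval -0.03 to 0.09, adjusted p = 0.714, limma).

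Ywhag, encoding 14-3-3 gamma, was read at chr5:136384599-136384658 and ran from 10.78 over 10.91 to 11.02 in CSD and from 10.81 over 10.94 to 11.06 in VD. The ranges covered each other almost fully, and the difference was 0.00 (95% interval -0.09 to 0.09, adjusted p = 0.988, limma). Ywhaz, encoding 14-3-3 zeta, a widely used binding partner of survival and metabolic clients, gave 11.46, 11.54 and 11.75 as lowest, median and highest value in CSD and 11.40, 11.57 and 11.76 in VD pups. Again the groups overlapped, with a difference of -0.01 (95% interval -0.12 to 0.11, adjusted p = 0.965, limma).

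Ywhah, encoding 14-3-3 eta, was read at chr5:33370505-33370564. Its CSD values ran from 14.79 over 14.95 to 15.20 and its VD values from 14.80 over 14.92 to 15.09, with a difference of 0.06 (95% interval -0.07 to 0.19, adjusted p = 0.726, limma). Sfn, read at chr4:133156484-133156543, was the most variable member, from 13.23 over 13.57 to 14.07 in CSD and from 12.72 over 13.51 to 14.01 in VD pups. Its difference of 0.11 had a 95% interval of -0.26 to 0.47 (adjusted p = 0.835, limma), so that a change of Sfn in either direction larger than that of Ywhab could not be told from none with these 16 pups. It also moved with the litters used, to 0.50 without the litter of mother 5 (adjusted p = 0.334) and to -0.11 without that of mother 6 (adjusted p = 0.606). Of the 7 members, 5 had a difference above 0 and 2 below, with a median of 0.06, beside a median of 0.00 and 51.7% above 0 over all genes. At an unadjusted p under 0.05 there were 2 members, Ywhab and Ywhaq, a limit that 14.5% of all genes passed.

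**Figure D2:**
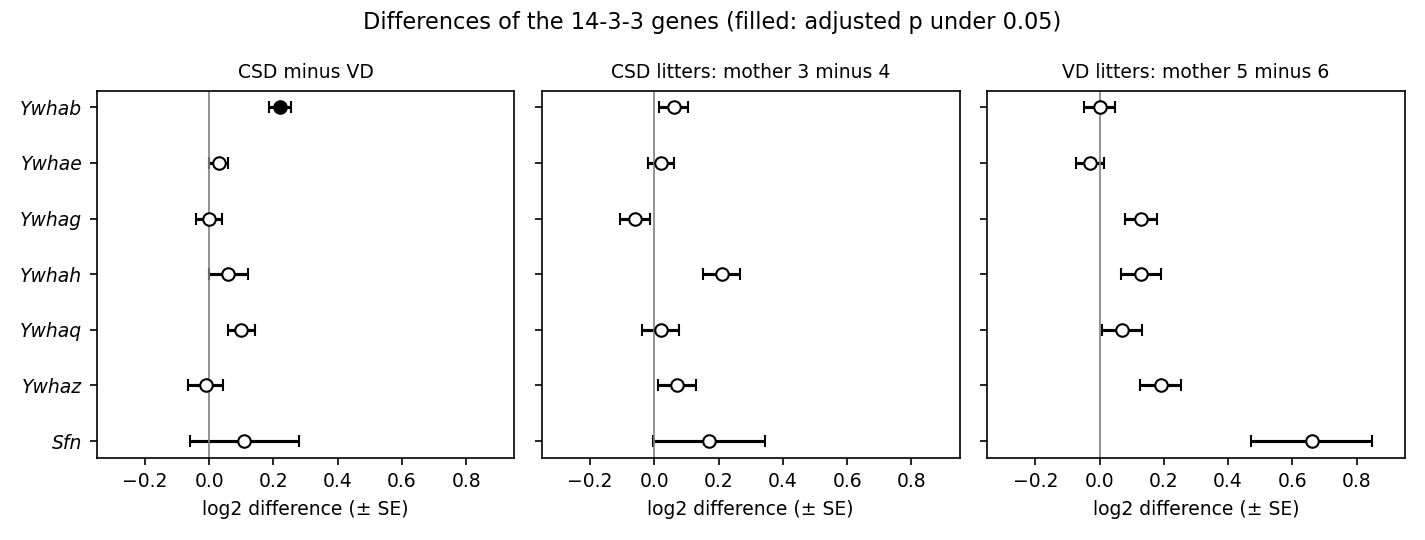
Log2 difference (horizontal axis, ± SE) of each 14-3-3 gene between CSD and VD pups, between the litters of mothers 3 and 4 (both CSD) and between those of mothers 5 and 6 (both VD). Filled points have an adjusted p under 0.05, which holds for Ywhab in the delivery comparison only, while the widest litter difference is that of Sfn in VD pups, at 0.66.

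Litters of 1 delivery mode were then compared, with sex in the model, to see how far the members varied among pups born the same way. No member was called between the litters of mothers 3 and 4 (0.0872% of all genes were) or between those of mothers 5 and 6 (0.874% of all genes), while 1 and 3 members, respectively, had an unadjusted p under 0.05 (limma), beside 7.68% and 11.5% of all genes. In the VD group, Sfn measured 13.46, 13.51, 13.73, 13.91 and 14.01 in the pups of mother 5 and 12.72, 13.27 and 13.51 in those of mother 6. The litters overlapped between 13.46 and 13.51. The log2 difference was 0.66 (standard error 0.19, adjusted p = 0.142, limma), the widest gap seen for any member in any comparison. Ywhaz and Ywhag lay the same way, with differences of 0.19 (adjusted p = 0.243) and 0.13 (adjusted p = 0.303, limma). In the CSD group, Ywhah measured 14.96, 15.09, 15.11 and 15.20 in pups of mother 3 and 14.79, 14.88, 14.90 and 14.94 in pups of mother 4. These litters did not overlap, as was seen for 4.06% of all genes with a value in every pup, and the difference was 0.21 (standard error 0.06, adjusted p = 0.276, limma). For Ywhah, Sfn, Ywhaz and Ywhag the larger gap between litters born the same way was thus wider than that between delivery modes. For Ywhab and Ywhaq it was narrower, and for Ywhae it was of like size. These gaps were not tested against each other.

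Sex was compared in the same model. No member was called between females and males (0.0599% of all genes were), and none had an unadjusted p under 0.05 (limma), beside 6.45% of all genes. The largest difference relative to its error was that of Ywhag, at 10.88 ± 0.06 in females (SD, n = 6) and 10.96 ± 0.08 in males (SD, n = 10), or -0.08 for females minus males (standard error 0.04, adjusted p = 0.817, limma). No member showed an interaction of delivery with sex either, beside 0.00272% of all genes called, and none had an unadjusted p under 0.05 (limma), beside 4.72% of all genes. The interaction estimates ran from -0.14 for Ywhaz to 0.05 for Ywhae, with standard errors of 0.11 and 0.06, and only 2 VD pups were female.

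The single probes were examined next, as the arrays read Ywhab, Ywhaq and Ywhaz at several places of the transcript. Over all 56366 probes, 1.64% were called between CSD and VD, and 1 of the 14 probes of the family was. It was the coding probe of Ywhab, 4.43 kb upstream of the other one in the genome, whose sequence is given above. It measured 11.04 to 11.35 (median 11.18) in CSD and 10.76 to 10.92 (median 10.84) in VD pups, without overlap. The share of single probes without overlap was not counted, while that of genes was 0.493%. The log2 difference of the coding probe was 0.33 (standard error 0.04, adjusted p = 0.00279, limma). The probe at the 3′ end of Ywhab, at chr2:163844231-163844290, measured 13.42 to 13.63 (median 13.54) and 13.30 to 13.50 (median 13.43). On this probe 5 CSD pups exceeded the highest VD pup, and the difference was 0.11 (standard error 0.04, adjusted p = 0.135, limma). Within each pup, the coding probe minus the 3′ probe was higher in CSD by 0.24, with all 8 CSD pups above all VD pups. A value at least as high was reached by 10.6% of 5384 genes, as described below, and the share of genes without overlap in such a contrast was not counted. This contrast and the 2 that follow were chosen after the values had been seen. They are therefore given without a p-value and describe these pups only. The gene was called with the coding probe alone and with both probes averaged, but not with the 3′ probe alone.

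**Figure D3:**
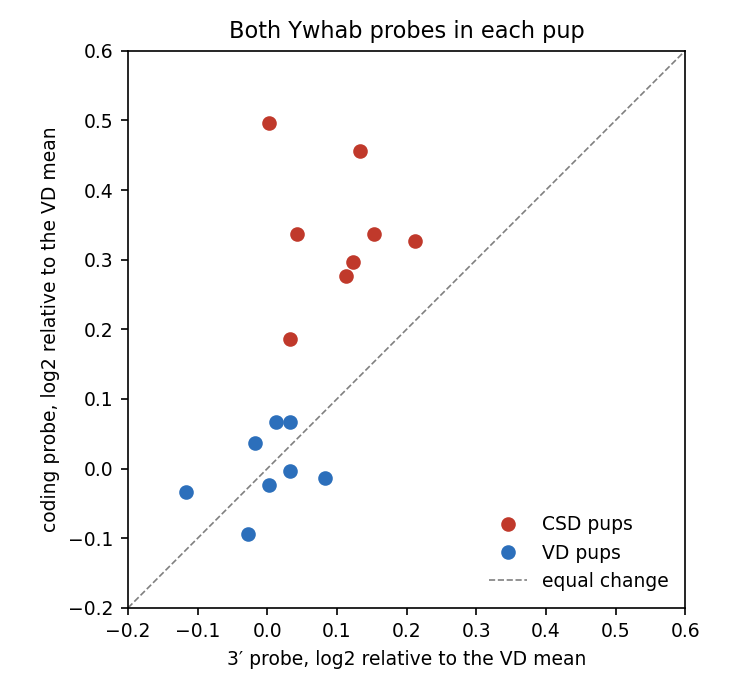
Log2 intensity of the coding probe (vertical axis) against the 3′ probe (horizontal axis) of Ywhab, each relative to its mean in VD pups, with 1 point per pup. All CSD pups lie above the dashed line of equal change, with the coding probe higher by 0.34 and the 3′ probe by 0.10 between the group means.

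Ywhaq was read by 6 probes, none of them called, and the difference was larger on its coding probes than on those nearest the 3′ end. The coding probe at chr12:21422802-21422861 measured 9.39 to 9.70 (median 9.54) in CSD and 9.14 to 9.44 (median 9.33) in VD pups, with 7 CSD pups above every VD pup and a log2 difference of 0.19 (standard error 0.05, adjusted p = 0.0583, limma). The coding probe at chr12:21404104-21404163 measured 12.93 to 13.34 (median 13.25) against 12.80 to 13.21 (median 12.97), again with 7 CSD pups beyond the highest VD pup, and gave 0.20 (adjusted p = 0.179). The 3 probes nearest the 3′ end gave 0.03, 0.00 and 0.07. The remaining probe was well above background on 1 array only and carries no information on a change. Within each pup, the mean of the 2 coding probes minus that of the 3 probes at the 3′ end was higher in CSD by 0.18. The share of genes that reached this value was not counted. For Ywhaz the difference was 0.03 on the coding probe and -0.05 on the 3′ probe. The contrast of both Ywhaz probes was 0.09, with 2 CSD pups above every VD pup.

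Across the array, probes towards the 5′ side of a gene moved in a like direction. In 5384 genes with probes 1 to 500 kb apart, the 5′ probe minus the 3′ probe was higher in CSD than in VD pups by a median of 0.04 (quartiles -0.04 and 0.13), and it was above 0 in 64% of them. A value at least as high as the 0.24 of Ywhab was reached by 10.6% of these genes. The median over genes, centred over all pups, ran from -0.01 to 0.06 in CSD and from -0.06 to 0.00 in VD pups. The part of this shift in the results for Ywhab and Ywhaq was not tested.

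**Figure D4:**
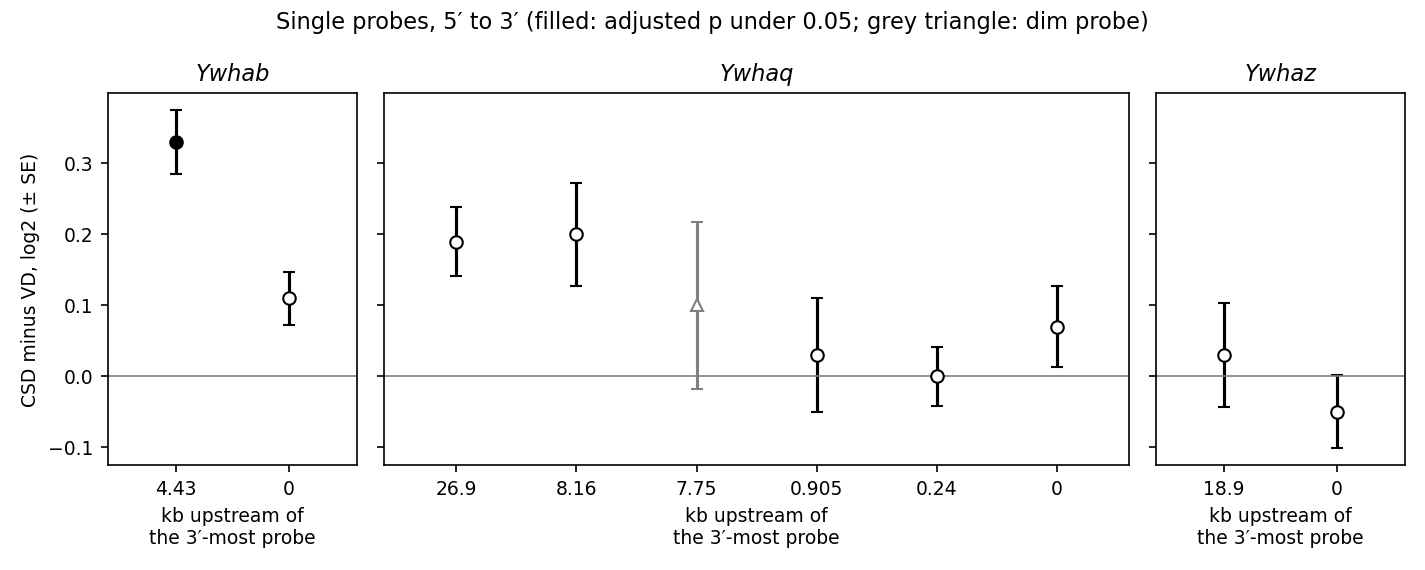
Log2 difference between CSD and VD pups (vertical axis, ± SE) for each probe of Ywhab, Ywhaq and Ywhaz, in order from 5′ to 3′, with the distance in the genome to the probe nearest the 3′ end (kb) on the horizontal axis. The leftmost probe of Ywhab, at 0.33, is the only one with an adjusted p under 0.05, and the 2 leftmost probes of Ywhaq, at 0.19 and 0.20, lie above its 3 rightmost ones.

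Most pairs of members had low correlations from pup to pup, which does not show that they vary independently. The part of measurement noise was not tested. After each gene was centred on the mean of its delivery group, the 21 pairs of members had a median Pearson correlation of 0.09 over 16 pups, with a range from -0.30 (Ywhae with Ywhag) to 0.78 (Ywhaz with Sfn). Only 3 pairs were above 0.4, and all of them held Sfn, with Ywhaz (0.78), Ywhah (0.49) and Ywhag (0.43). The points share arrays, normalisation and litters, and the litters of mothers 5 and 6 differed in the same direction for Sfn and Ywhaz. The correlations of Ywhab with the other members lay between -0.09 and 0.20. Among 10933 other genes well above background on every array, the nearest to Ywhab were Polr3gl (0.766) and Rab35 (0.760), and the nearest to Sfn were Golga7 (0.927) and Dok4 (0.913). Ywhaz was nearest to Abca7 (0.947), Ywhag to Vangl2 (0.908), Ywhah to Paqr5 (0.857), Ywhae to Ensa (0.836) and Ywhaq to Prpf19 (0.810). Correlations of this height are picked from many genes, and none of these nearest genes was called between CSD and VD.

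The partners of the family were examined in 6 lists, 65 genes in all, of which 1 was called. Beside the 1.25% of all genes called, this was 1 lower and 0 higher in CSD, with 33 differences above 0, 32 below and a median of 0.00. At an unadjusted p under 0.05 there were 8 partners, beside the 14.5% of all genes. The called gene was Hdac5, a class IIa histone deacetylase that 14-3-3 proteins keep out of the nucleus once it is phosphorylated. It was read by 1 probe only, as were Irs2 and Trp53, described below. Hdac5 ran from 13.44 over 13.54 to 13.66 in CSD and from 13.63 over 13.72 to 13.85 in VD pups. Here 6 of the 8 CSD pups lay below every VD pup. The log2 difference was -0.20 (13.54 ± 0.09 against 13.72 ± 0.07, SD, n = 8 each; standard error 0.04, adjusted p = 0.0362, limma). The call was not stable, as it was lost on leaving out any 1 of CSD pups 1, 3, 6, 8 and 9 or VD pups 4, 5, 10 and 11, with adjusted p from 0.0526 to 0.109 and a difference from -0.21 to -0.18. It was also lost with litter means as samples (-0.18, adjusted p = 0.306, limma), the deposited matrix (-0.20, 0.0866) and median centring (-0.17, 0.115). Without the litters of mothers 3, 4 and 5, Hdac5 gave -0.19, -0.22 and -0.20 and was not called (adjusted p = 0.111, 0.0627 and 0.24, limma).

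In the list of 14 client regulators of transcription, 9 genes were lower and 5 higher, with a median of -0.03. Of these, 3 had an unadjusted p under 0.05 (limma), namely Hdac5, Crtc1 and Mlxipl. The deacetylases related to Hdac5 lay on both sides of 0, with -0.15 for Hdac7 (adjusted p = 0.378, limma), -0.08 for Hdac9 and 0.06 for Hdac4. So did the coactivators that salt-inducible and AMP-activated kinases retain in the cytoplasm through 14-3-3, with -0.16 for Crtc1 (adjusted p = 0.325), -0.01 for Crtc2 and 0.06 for Crtc3. The glucose sensor Mlxipl gave 0.11 (adjusted p = 0.317), and the Hippo coactivators Yap1 and Wwtr1 gave -0.01 and -0.05. None of these passed the limit. Foxo1 and Foxo3, which Akt sends out of the nucleus, gave -0.06 and -0.11 (adjusted p = 0.721 and 0.478).

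Among 8 client kinases and MAPK scaffolds, 6 were higher and 2 lower, and none was called, although 2 had an unadjusted p under 0.05 (limma). These were Map3k2, a kinase upstream of ERK5, at 9.21 ± 0.09 in CSD against 9.05 ± 0.08 in VD pups (SD, n = 8 each), a difference of 0.15 (adjusted p = 0.124), and Map3k1, at 9.26 ± 0.08 against 9.39 ± 0.10, a difference of -0.14 (adjusted p = 0.172, limma). Without the litter of mother 6 both were called, Map3k2 at 0.17 (adjusted p = 0.0285) and Map3k1 at -0.18 (adjusted p = 0.0249), and Map3k2 also without VD pup 7 (0.18, adjusted p = 0.0451). Without the litter of mother 5, Map3k1 gave -0.07 (adjusted p = 0.715). The client kinases Braf and Araf gave 0.04 and -0.06 (adjusted p = 0.634 and 0.436, limma).

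Of the 8 client regulators of cell death and the cell cycle, 3 were higher and 5 lower. Mdm4, an inhibitor of p53, measured 8.34 ± 0.03 in CSD and 8.24 ± 0.06 in VD pups (SD, n = 8 each), a difference of 0.10 (adjusted p = 0.127), and Wee1, which restrains entry into mitosis, gave -0.10 (adjusted p = 0.419, limma). Bad and Bax, death proteins, gave -0.02 and 0.00. No gene of this list was called, and 1 had an unadjusted p under 0.05.

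The 12 client regulators of growth, glucose and the cytoskeleton had 8 higher and 4 lower, with 0 called and 0 at an unadjusted p under 0.05. Irs2, an adaptor of the insulin receptor, ran from 10.85 over 11.68 to 11.96 in CSD and from 11.08 over 11.26 to 11.77 in VD pups, a difference of 0.30 with a standard error of 0.15 (adjusted p = 0.384, limma). Its lowest pup was a CSD pup, and so were its 2 highest. Cgn, encoding the tight junction protein cingulin, gave 0.15 (adjusted p = 0.353). Both values moved with the litters used. Irs2 gave 0.16 without that of mother 5 and 0.39 without that of mother 4. Cgn gave 0.28 without that of mother 5 and 0.08 without that of mother 6, on slide 1 or with the brightest probe.

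Of 16 kinases that phosphorylate sites bound by 14-3-3 proteins, 6 were higher and 10 lower, with 0 called and 1 at an unadjusted p under 0.05. This was Rps6ka3, which encodes the ERK-activated kinase Rsk2, at 8.88 ± 0.05 in CSD against 8.76 ± 0.06 in VD pups (SD, n = 8 each), a difference of 0.10 (adjusted p = 0.112, limma). Akt2 gave 0.08 (adjusted p = 0.354), Akt1 -0.04 and the Hippo kinases Lats1 and Lats2 0.07 and -0.04. Of 7 regulators of Sfn, 5 were higher and 2 lower, again with 0 called and 1 at an unadjusted p under 0.05. Trp53, encoding p53, measured 10.11 ± 0.30 in CSD and 9.70 ± 0.27 in VD pups (SD, n = 8 each), a difference of 0.30 (standard error 0.10, adjusted p = 0.153, limma). This value moved with the litters used. It was 0.48 without that of mother 3 (adjusted p = 0.0452) and 0.39 without that of mother 6 (adjusted p = 0.0306), but 0.13 without that of mother 4 (adjusted p = 0.646) and 0.17 without that of mother 5 (adjusted p = 0.699). Trim25, a ubiquitin ligase for stratifin, gave 0.10 (adjusted p = 0.512), and Cdkn1a, another target of p53, gave 0.03. Over the alternatives, Trim25 ran from 0.01 without the litter of mother 3 to 0.18 without that of mother 5.

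**Figure D5:**
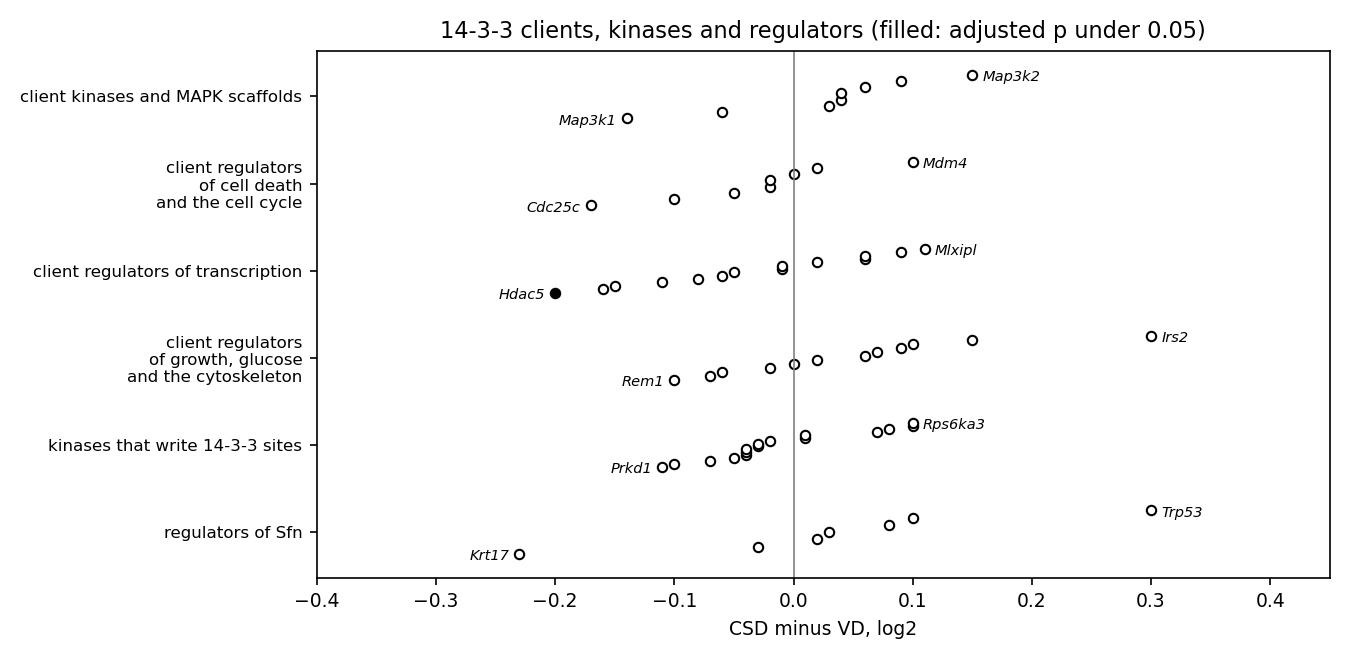
Log2 difference between CSD and VD pups (horizontal axis) of the 65 listed partner genes, with 1 point per gene and 1 band per list. Hdac5, at -0.20, is the only filled point (adjusted p under 0.05), and every other gene lies between -0.23 (Krt17) and 0.30 (Irs2 and Trp53).

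Colon RNA pools many cell types, and in such bulk RNA fewer cells of a type and less RNA per cell cannot be told apart. No marker of any of 11 cell type lists was called between CSD and VD (limma), beside 1.25% of all genes. An unadjusted p under 0.05 was reached by 14.5% of all genes. It was also reached by 1 marker each of the colonocyte, epithelial, squamous epithelium, smooth muscle and small intestine lists. The enteric neuron, enteric glia and fibroblast lists had 0 such markers. All 6 leukocyte markers were lower in CSD, 4 of them at an unadjusted p under 0.05, and their summed level was 12.90 ± 0.36 in CSD and 13.36 ± 0.22 in VD pups (log2, SD, n = 8 each), with Lyz2 as the most intense gene (difference -0.37, adjusted p = 0.22, limma). All 5 endothelial markers were lower, 3 of them at that limit (summed level 11.17 ± 0.13 against 11.33 ± 0.08, most intense Emcn, -0.16, adjusted p = 0.28). Of 6 smooth muscle markers 5 were lower (17.64 ± 0.19 against 17.79 ± 0.16, most intense Tagln, -0.13), and so were 4 of 5 fibroblast markers (16.29 ± 0.20 against 16.45 ± 0.11, most intense Dcn, -0.18). Of 6 colonocyte markers 5 were higher, with a median difference of 0.24 and a summed level of 17.52 ± 0.21 against 17.38 ± 0.15 (most intense Aqp8, 0.11). Enteric neuron markers were higher in 6 of 7 (11.57 ± 0.11 against 11.59 ± 0.13, most intense Uchl1, -0.22) and enteric glia markers in 3 of 5 (10.22 ± 0.16 against 10.27 ± 0.11, most intense S100b, 0.03). Of 6 goblet cell markers 5 were higher, 3 of them at that limit, and the summed level was 19.58 ± 0.10 against 19.52 ± 0.10, with Zg16 as the most intense gene (-0.03). The epithelial list had 5 of 7 markers higher and a summed level of 18.97 ± 0.15 against 19.00 ± 0.13, with Krt8 as the most intense gene (-0.04). Among 8 markers of squamous epithelium, which also expresses Sfn, 6 were lower (summed level 10.33 ± 0.12 against 10.45 ± 0.11, most intense Krt14, -0.14), and Dsg3 had no probe well above background on any array. The part of these cell types in the results for Ywhab and Hdac5 was not tested.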

How the data were processed

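Colon RNA of 16 pups was measured on 1-colour Agilent arrays annotated on mm9. The authors deposited the scanner output, with a mean intensity and a median local background per spot (Feature Extraction 12.0.3.2, per the file headers), and a matrix of 27036 genes in log2 units, made by the authors with limma 3.38 per the labels. The scanner output was processed here with limma 3.58.1 (R 4.3.3), with normexp background correction (offset 50), log2 scale and quantile normalisation. Spots marked as outliers were left out, a probe was used where it exceeded the 5% quantile of its array on 4 or more arrays (56366 of 56605), and probes were averaged by gene name (36711 genes). Quantile normalisation sets changes relative to the bulk of genes. The model of lmFit and eBayes held delivery mode and sex, with mother as a random effect (duplicateCorrelation, 0.0152), and p-values were adjusted over all genes by Benjamini-Hochberg (limit 0.05). Litters were compared with mother as a fixed effect. The exact permutation test was two-sided. The number of arrays limits the precision, and 0 spots were saturated. The script was tested on simulated data.

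The members and gene lists were chosen with earlier results of these data known. Genes named were all members, every listed partner called and otherwise the 2 with the smallest p per list, the 3 genes most correlated with each member (of which 1 or 2 are given), and the most intense marker of each list described. Car1, the other small intestine genes and Dsg3 were named for their level against background, and Krt17 for the lowest difference among the partners. Other partners (Hdac4, Hdac7, Hdac9, Crtc1, Crtc2, Crtc3, Mlxipl, Yap1, Wwtr1, Braf, Araf, the Foxo and Lats genes, Bad, Bax, Akt1 and Cdkn1a) were named for their role after their values had been seen. Alternatives were other background corrections, scalings and filters, the brightest or each single probe, the deposited log2 matrix, other models, subsets of pups and the number in the titles as a replicate block. The numbers do not pair the pups, as the deviations of pups with 1 number had correlations from -0.05 to 0.22.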

Additional observations from a re-analysis of the deposited data

Results flagged for a closer look

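Ywhaq in VD pup 7 (10.38) lay apart from the other VD pups, with a gap to the next pup of 0.593 of the group's range, over Dixon's limit for 8 samples. The CSD minus VD difference of Ywhaq was 0.10 with this pup and 0.08 without it (adjusted p = 0.279 and 0.295, limma). VD pup 11 had 58.7% of its spots well above background, the lowest share of the VD pups by 0.823 of their range. Ywhab gave 0.22 (adjusted p = 0.00929) and Ywhaq 0.11 (adjusted p = 0.279) without that pup. These were 2 of 16 groups of values examined, and chance alone marks about 5% of groups.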

How the results depend on the processing

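With 2 litters per delivery mode, small changes of single members are hard to tell from none. Ywhab stayed higher in CSD under all 41 alternatives (0.11 to 0.33) and was called in 31. It was not called with a normexp offset of 0 (0.23, adjusted p = 0.052, limma), the brightest probe per gene (0.11) or the 3′ probe alone (0.11). The brightest probe of Ywhab is its 3′ probe, so that both of these alternatives read the same values. Nor was Ywhab called with litter means (0.22), males only (0.21), slide 1 (0.16), slide 2 (0.28), or without the litter of mother 3 (0.19) or 5 (0.22). The number in the titles as a replicate block, which replaced sex in the model, gave 0.22 (adjusted p = 0.252, limma). Only the numbers 5 to 9 occur in both groups, so that this estimate rests on the pups with those numbers alone. The members called therefore numbered 0 under 9 of 39 alternatives (those named, apart from the 3′ probe alone) and 1 under the others.

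Members near 0 changed sign. Ywhag gave 0.00 with the deposited matrix, the 75th percentile scaling or the filter on probes well above background in 1 group only, 0.01 with median centring, 0.02 in males, with the replicate block or without the litter of mother 3, 0.05 on slide 2, 0.08 without that of mother 5, and -0.02 to 0.02 on leaving out 1 pup. Ywhaz gave 0.01 with median centring or the 75th percentile scaling, 0.02 with litter means, the replicate block or slide 2, 0.03 with its coding probe alone or without the litter of mother 4, 0.04 in males, 0.13 without that of mother 5, and -0.05 to 0.01 on leaving out 1 pup. Without the litter of mother 3, Sfn gave -0.03 and Ywhah -0.05. Ywhah gave 0.16, 0.15 and 0.02 without that of mother 4, 5 and 6, and 0.03 without CSD pup 3. Sfn gave 0.50, 0.21 and -0.11 without that of mother 5, 4 and 6, and it ran from 0.00 to 0.16 on leaving out 1 pup, the lowest without VD pup 8. Ywhae gave 0.00 without the litter of mother 5, and 1 Ywhaq probe alone gave 0.00. Akt2 gave -0.06 and Mdm4 0.20 (called, adjusted p = 0.044) with the brightest probe. Wee1 gave 0.00 on slide 2, but -0.21 on slide 1, with the brightest probe or with the filter on probes well above background in 1 group only. The causes were not tested.

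Of all genes, 102 were called with offset 0, 243 with offset 16, 177 with scanner-corrected intensities, 164 with their 75th percentile scaling, 170 in the deposited matrix, 992 without sex, 11 on slide 1 and 0 on slide 2, in males, with litter means or with the replicate block. Without the litters of mothers 3, 4, 5 and 6 there were 212, 138, 189 and 2265, and 145 to 617 without 1 pup. Hdac5 was lower in CSD under all 39 alternatives (-0.25 to -0.15) and called in 16. Of the 65 partners, 0 were called with either offset, either scanner-corrected scaling, the deposited matrix, median centring, litter means, males, the replicate block, either slide or without the litter of mother 4 or 5, 2 with the brightest probe, 6 without the litter of mother 6 and 0 to 2 without 1 pup. No member was called for sex, the interaction or between litters under any alternative run.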
